A study of Mus musculus with 6 samples.

Results

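The autophagy and mitophagy genes are 44 protein-coding genes of the machinery that encloses cytoplasm or mitochondria in a double membrane and delivers it to the lysosome, chosen by symbol from the 24421 genes of a table of RNA levels. RNA was sequenced from live F4/80+ CD11b+ macrophages sorted from the visceral white adipose tissue of male C57BL/6N mice. All mice were 12 weeks old and on a high-fat diet with 60 kcal% fat. One group of mice received the ethanol vehicle (EtOH), another estradiol (E2) at 10 mg/kg and the last 4-hydroxyestrone (4-OHE1) at 10 mg/kg, each injected under the skin every 6 days for 30 days. Each group had 2 libraries, and the labels do not say whether they came from separate animals, so every p-value here rests on the spread of these libraries alone, and that spread may be technical.

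In macroautophagy a kinase complex built around ULK1 starts the process, and a lipid kinase complex built around the PI3 kinase VPS34 and beclin 1 marks the site with the lipid PI3P. Lipid transfer proteins then let the membrane grow, a conjugation machinery attaches ubiquitin-like proteins of the ATG8 family to it, and cargo receptors tether cargo to ATG8 before tethers and a SNARE protein fuse the vesicle with the lysosome. Mitophagy is the selective removal of mitochondria by the same route, started by the kinase PINK1 or by receptors on the mitochondrial surface. In adipose tissue macrophages the route also feeds stored lipid to the lysosome. Both hormones are steroid estrogens; 4-OHE1 differs from E2 by an added hydroxyl group on the aromatic ring, which makes it a catechol, and by a ketone in place of an alcohol on the five-membered ring.

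The libraries differed in more than the hormone. Exon reads numbered 18697456 and 35293924 in EtOH and 4515276 to 5764342 in the other 4 libraries. Of all reads, 84.8% ± 0.366 (SD, n = 2) lay in exons for EtOH, 74.1% ± 2.41 for E2 and 61.7% ± 1.19 for 4-OHE1. The nuclear RNA Malat1 was lowest under EtOH, at 200.1 and 197.6 RPKM, with E2 at 359 and 506 and 4-OHE1 at 853 and 985. Levels are given in RPKM, reads per kilobase of exon relative to the total reads of the library, as the authors scaled them. Because that scaling counts reads outside exons, each comparison was also made relative to exon reads, and a gene is said to have risen or fallen only where limma gave an adjusted p below 0.05 in the same direction under both scalings. Log2 changes are of log2(RPKM + 1) relative to exon reads, and of the adjusted p-values of both scalings the larger is printed. Ratios are these log2 changes put back on a linear scale, so they are ratios of RPKM + 1 and lie nearer to no change than ratios of RPKM. The median of all 10950 genes tested was -0.04 for 4-OHE1 against EtOH relative to exon reads and -0.44 in the authors' scaling; for E2 against EtOH it was -0.00 and -0.18, and for 4-OHE1 against E2 -0.02 and -0.25.

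The sorted cells carried the transcripts of macrophages. The summed level of 11 macrophage markers was 15323 to 15590 RPKM in EtOH, 12085 to 12781 in E2 and 9837 to 10122 in 4-OHE1. Lyz2 alone supplied 5725 and 5806 RPKM of this sum under EtOH, but 2381 and 2350 under 4-OHE1. Relative to exon reads, the median log2 change of these 11 genes was -0.10 for 4-OHE1 against EtOH. The authors' scaling gave -0.55, so most of that lower median was not seen relative to exon reads. With 4-OHE1 against EtOH 4 of the 11 fell (Adgre1, which encodes F4/80, Cd68, Fcgr1 and Lyz2) and 1 rose (Mertk). That is 45.5%, beside 19.6% of all genes tested, 5.74% higher and 13.9% lower. Summed levels of 12 adipocyte markers were higher in the hormone groups, from 61.2 to 65.3 RPKM in EtOH to 166 to 169 in E2 and 250 to 265 in 4-OHE1. In that comparison 6 of the 10 adipocyte markers tested rose (Adipoq, Cidec, Cfd, Car3, Retn and Pck1), 60.0% beside the same 19.6%. The sum of 12 stromal markers went from 601 RPKM in both EtOH libraries to 422 to 448 in E2 and 330 to 332 in 4-OHE1. Gsn alone made up 318 and 313 RPKM of it in EtOH. With 4-OHE1 against EtOH, 5 of the 11 tested fell (Col1a1, Col1a2, Col3a1, Mfap5 and Gsn). Dpt went the other way and rose by 1.22 on the log2 scale. Endothelial markers summed to 19.7 to 31.8 RPKM over the 6 libraries, erythroid markers to 85.4 to 122, B cell markers to 8.62 to 11.9, T and NK cell markers to 6.63 to 12.3, mesothelial markers to 2.25 to 10.5, and neutrophil, mast cell and muscle markers each to below 4. Markers of epididymis and testis summed to 0.912 to 1.03 RPKM in EtOH, 8.70 to 15.7 in E2 and 2.19 to 5.74 in 4-OHE1. The neutrophil genes Ly6g, Camp and Elane, the eosinophil gene Epx, the epididymal gene Lcn8 and the muscle gene Myh4 were listed at 0 in all 6 libraries. In RNA from a bulk sort, fewer cells of a type and less RNA per cell cannot be told apart. The part of these differences in the results that follow was not tested.

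All 44 genes were transcribed above a mean of 1 RPKM and entered the tests, none having been lost to the filter. Gabarap, an ATG8 protein, had the highest mean level, 343 RPKM over the 6 libraries, followed by the cargo receptor Sqstm1 with 122 and Gabarapl1 with 63.0. With 4-OHE1, 1 of the 44 rose against EtOH, the PI3 kinase complex subunit Uvrag, and 4 fell, namely Gabarap, Gabarapl1, Sqstm1 and Atg101. That is 11.4% of the members, beside 19.6% of all genes tested in that comparison, of which 5.74% rose and 13.9% fell. Relative to exon reads alone the split was 5 higher and 4 lower, beside 26.7% of all genes called, 12.8% higher and 13.9% lower. In the authors' scaling alone it was 1 higher and 17 lower, beside 45.3% of all genes, 5.74% higher and 39.5% lower. For E2 against EtOH 0 of the 44 were called, where 3.93% of all genes passed, 1.75% higher and 2.17% lower. EdgeR on reads recovered from the deposited tables called 1, Uvrag, higher, beside 7.55% of all genes, 4.53% higher and 3.02% lower, and DESeq2 called 1 beside 9.59% of all genes. With limma 3 members had an unadjusted p below 0.05 under both scalings, as had 1484 of the 10950 genes. Between the hormones, 4-OHE1 gave more Uvrag and less Gabarap than E2, 2 members of 44, beside 9.64% of all genes, 2.5% higher and 7.14% lower. Relative to exon reads alone it was 3 higher and 1 lower, beside 12.7% of all genes, 5.54% higher and 7.14% lower. The members' median log2 change was -0.02 with E2 and 0.17 with 4-OHE1, both against EtOH, and 0.21 between the hormones; in the authors' scaling it was -0.21, -0.23 and -0.01. Of the 44 intervals of 95%, 40 lay wholly within a 2-fold change either way with E2 and 33 with 4-OHE1, both against EtOH, and 34 between the hormones. Over all 10950 genes the counts were 8222, 6356 and 7308 in the same order. The median half-width of the intervals was 0.39 for the members and 0.47 for all genes. Leaving out 1 library moved the counts, over all genes as over the members. For 4-OHE1 against EtOH, 1 member was called without EtOH replicate 1 or 2, beside 5.38% and 5.14% of all genes, and 9 without 4-OHE1 replicate 1, beside 27.4%. For E2 against EtOH, 3 were called without 4-OHE1 replicate 1 or 2, beside 9.42% and 9.47%. Between the hormones 1 was called without any of the EtOH or E2 libraries, beside 1.57% to 3.0% of all genes, and 4 and 5 without 4-OHE1 replicates 1 and 2, beside 17.9% and 20.5%.

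**Figure D1:**
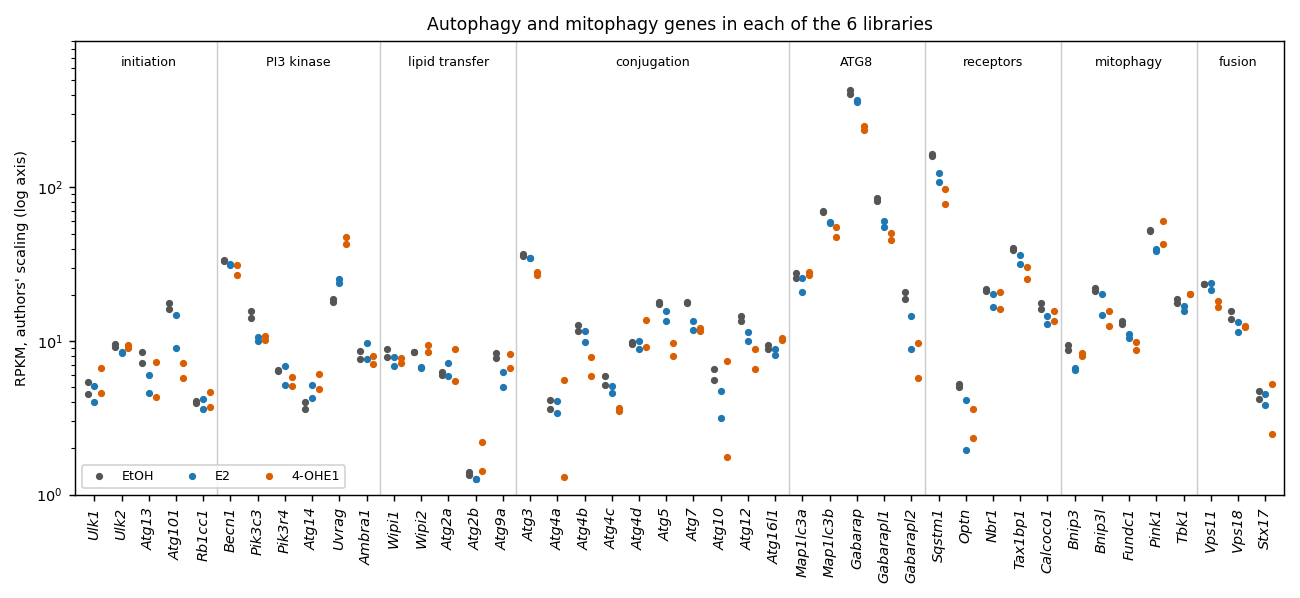
RPKM on a log axis for each of the 44 genes in the 6 libraries, ordered by role; each point is 1 library, grey EtOH, blue E2 and orange 4-OHE1. Gabarap and Sqstm1 stand above the rest in every library, and Uvrag is the member whose orange points lie farthest above its grey ones.

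The 5 kinase complex genes that start autophagy were expressed at low levels, from 4.05 RPKM for the scaffold Rb1cc1 to 11.8 for Atg101 as means over the 6 libraries. Atg101 encodes the partner that stabilises ATG13 in the complex. Its levels were 17.8 and 16.2 RPKM in EtOH, 14.8 and 8.96 with E2, and 7.17 and 5.72 with 4-OHE1. Both 4-OHE1 libraries lay below all 4 others, while the E2 libraries were far apart from each other. Atg101 fell with 4-OHE1 against EtOH by 0.87 on the log2 scale (SE 0.225, 95% interval -1.42 to -0.33, adjusted p = 0.0335 with limma). Against E2 the difference was -0.53 with an adjusted p of 0.169, and E2 against EtOH gave -0.34 with 0.529. The call was lost without EtOH replicate 1 (adjusted p = 0.214), EtOH replicate 2 (0.159) or 4-OHE1 replicate 2 (0.074), in a range of 0.00614 to 0.214 over the alternatives. Atg101 lies on chromosome 15 at 101114732 to 101121365 on the plus strand of mm9, the build of the files. The kinases Ulk1 and Ulk2, the regulatory subunit Atg13 and Rb1cc1 were not called by limma in any comparison, with log2 changes between -0.01 and 0.54 for 4-OHE1 against EtOH. EdgeR and DESeq2 on the recovered reads called Ulk2 higher in that comparison, edgeR by 0.42 with an adjusted p of 0.0279.

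Among the 6 genes of the PI3 kinase complex, Uvrag was the one that limma called. Uvrag marks the form of the complex that acts on endosomes and on vesicle maturation, and competes with Atg14 for beclin 1. It read 18.0 and 18.8 RPKM in EtOH, 23.7 and 25.2 with E2, and 47.8 and 43.0 with 4-OHE1. The 3 groups did not overlap, and the order EtOH, E2, 4-OHE1 held for every library. With 4-OHE1 the log2 change was 1.70 against EtOH (SE 0.107, 95% interval 1.45 to 1.96, adjusted p = 0.000421), a ratio of 3.26 relative to exon reads, and 1.25 in the authors' scaling. Against E2 at the same dose and times it was 1.13 (95% interval 0.87 to 1.39, adjusted p = 0.00396), a ratio of 2.19. Those 2 calls held under all 18 alternatives tried, with log2 changes from 1.25 to 1.76 and from 0.87 to 1.20. For E2 against EtOH the log2 change was 0.58 (0.32 to 0.84) with a limma adjusted p of 0.0843, not called; edgeR on the recovered reads gave 0.61 with an adjusted p of 0.00675, and the authors' deposited table gives 0.57 with 7.29e-06. The range of the adjusted p over the alternatives in that comparison was 6.87e-05 to 0.536, and limma called it without either 4-OHE1 library (0.0324 without replicate 1 and 0.0321 without replicate 2).

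The number of reads behind Uvrag was not small: 1365 and 2672 in EtOH, 572 and 667 with E2, and 1507 and 1092 with 4-OHE1, on exons of 3421 bases in all. The gene lies on chromosome 7 at 106035253 to 106289654 on the minus strand of mm9. A stretch of its transcript of 214 to 345 bases matched transcripts of 15 other genes at 95% identity or more, so reads there could be shared, and their part in the change was not tested. No such match was found for Gabarap, Sqstm1 or Atg101.

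The other 5 genes of the complex were not called by limma in any comparison. Becn1, which encodes the scaffold beclin 1, was the highest of the 6, with 33.1 and 33.9 RPKM in EtOH, 31.2 and 31.9 with E2, and 26.8 and 31.2 with 4-OHE1. Its log2 change with 4-OHE1 against EtOH was 0.24 (95% interval -0.04 to 0.52), so a 2-fold change lay outside the interval. The exons of Becn1 overlap those of Cntd1 on the opposite strand, whose mean level was 7.02 RPKM, and the counting is not stated to use strand. Atg14, the subunit that directs the complex to the site of vesicle formation, stood at 4.01 and 3.64 RPKM in EtOH and 4.86 and 6.07 in 4-OHE1, a log2 change of 0.81 with an adjusted p of 0.111; edgeR on the recovered reads called it higher, by 0.95 with 0.0137. Pik3c3, the catalytic VPS34, Pik3r4, its regulatory subunit, and Ambra1, an activator of beclin 1, had log2 changes of -0.04 to 0.31 in that comparison.

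PI3P-binding Wipi1 and Wipi2, the lipid transfer proteins Atg2a and Atg2b and the scramblase Atg9a had mean levels of 1.48 RPKM for Atg2b to 8.06 for Wipi2 over the 6 libraries and no call with limma. EdgeR on the recovered reads called Wipi2, Atg2a and Atg2b higher for 4-OHE1 against EtOH, and Wipi2 against E2 as well. Wipi2, the highest, read 8.53 and 8.52 RPKM in EtOH, 6.73 and 6.66 with E2, and 9.46 and 8.47 with 4-OHE1. The E2 libraries lay below all others, and in the authors' scaling the EtOH and 4-OHE1 libraries overlapped. For 4-OHE1 against EtOH the log2 change of Wipi2 was 0.06 in that scaling and 0.48 relative to exon reads (95% interval 0.15 to 0.81). All 5 log2 changes were above 0 for 4-OHE1 against E2, from 0.25 to 0.62, and against EtOH, from 0.27 to 0.57. Of all 10950 genes, 5268 were above 0 against E2 and 5137 against EtOH. In the authors' scaling the count of the 5 above 0 was again 5 against E2 but 3 against EtOH, beside 3148 and 2424 of all genes.

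The 10 genes of the conjugation machinery, which charges ATG8 and ATG12 onto their targets and trims ATG8, gave no call with limma either, while edgeR on the recovered reads called Atg4d (0.67, adjusted p = 0.0315) and Atg16l1 (0.61, adjusted p = 0.0184) higher for 4-OHE1 against EtOH. Atg3, the enzyme that transfers ATG8 to lipid, was the highest with 36.7 and 35.9 RPKM in EtOH, 34.6 and 34.9 with E2, and 28.2 and 26.9 with 4-OHE1. Its log2 change with 4-OHE1 against EtOH was 0.06 relative to exon reads (95% interval -0.16 to 0.28) and -0.39 in the authors' scaling. Its lower RPKM in both 4-OHE1 libraries was thus not seen relative to exon reads. Log2 changes of the group in that comparison ran from -0.50 for Atg5, part of the ATG12 conjugate, to 0.61 for the protease Atg4d, whose exons overlap Kri1 on the opposite strand. The 4-OHE1 libraries disagreed most for Atg10, which helps attach ATG12 to ATG5, at 7.46 and 1.77 RPKM, and for the protease Atg4a, at 5.58 and 1.30. These rest on 110 and 21 reads and on 112 and 21 reads, and their intervals for 4-OHE1 against EtOH reached beyond a 2-fold change in both directions.

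The ATG8 family, whose members coat the vesicle membrane and bind cargo receptors, held 2 of the 4 genes that fell with 4-OHE1 against EtOH. That is 40.0% of its 5 genes, beside 13.9% of all genes tested that fell. All 5 have short exons, 974 to 1767 bases in all, and of all genes below 1897 bases 19.4% fell. Gabarap read 407 and 430 RPKM in EtOH, 361 and 371 with E2, and 251 and 236 with 4-OHE1. In the authors' scaling the groups did not overlap. Against EtOH it fell with 4-OHE1 by 0.32 on the log2 scale (SE 0.0603, 95% interval -0.47 to -0.18, adjusted p = 0.0116), a ratio of 0.800, and by 0.78 in the authors' scaling. Gabarap fell by 0.32 against E2 as well (-0.47 to -0.18, adjusted p = 0.0226). For E2 against EtOH the log2 change was 0.00 (-0.14 to 0.15), so the lower RPKM of the E2 libraries was not seen relative to exon reads. Without EtOH replicates 1 and 2 in turn the adjusted p against EtOH was 0.0764 and 0.13, and against E2 0.0774 and 0.0782; without E2 replicates 1 and 2 the latter was 0.0643 and 0.0997. Over all alternatives it ranged from 9.96e-05 to 0.13 against EtOH and from 0.000207 to 0.14 against E2. Gabarap lies on chromosome 11 at 69804872 to 69808451 on the plus strand.

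Gabarapl1, its close relative, read 81.4 and 85.3 RPKM in EtOH, 60.3 and 55.0 with E2, and 50.5 and 45.1 with 4-OHE1. Both hormone groups lay below both EtOH libraries. Gabarapl1 fell with 4-OHE1 against EtOH by 0.34 (SE 0.0849, 95% interval -0.54 to -0.13, adjusted p = 0.0305). The value for E2 against EtOH was of like size, -0.33 (-0.54 to -0.13), but its adjusted p was 0.0871 with limma and it was not called. The authors' deposited edgeR table gives -0.37 for E2 against EtOH with an adjusted p of 0.00567. For 4-OHE1 against EtOH that table gives -0.41 with an adjusted p of 0.052, which does not pass 0.05. Between the hormones Gabarapl1 differed by -0.01 (-0.21 to 0.20), an interval that leaves out a 2-fold change in either direction. From start to end, Gabarapl1 overlaps a gene on the opposite strand, 1700101I11Rik, by 93 bases. Transcripts of the genes match over 379 bases at 100% identity, and the mean level of 1700101I11Rik was 0.872 RPKM. The fall of Gabarapl1 was lost without EtOH replicate 1 or 2. For E2 against EtOH it was called without either 4-OHE1 library. Gabarapl1 lies on chromosome 6 at 129483210 to 129492349 on the plus strand.

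Gabarapl2, Map1lc3a and Map1lc3b were not called by limma. Map1lc3b, which encodes the widely used vesicle marker LC3B, had a log2 change of 0.01 with 4-OHE1 against EtOH relative to exon reads (-0.25 to 0.27). Gabarapl2 gave -0.87 with an adjusted p of 0.0695, and Map1lc3a, measured on a noncoding transcript of the gene, gave 0.48 with 0.845. Gabarap supplied 67.6% and 67.8% of the family's summed RPKM in EtOH, 70.0% and 71.3% with E2, and 65.8% and 63.0% with 4-OHE1. The share of Map1lc3a was 4.27% and 4.38% in EtOH, 4.04% and 4.93% with E2, and 7.0% and 7.53% with 4-OHE1, where both values lay above all others. Close to identical pseudogene copies exist for Gabarapl2 and Map1lc3b, and for Bnip3, Bnip3l and Atg4a among the other members, so their counts are uncertain.

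**Figure D2:**
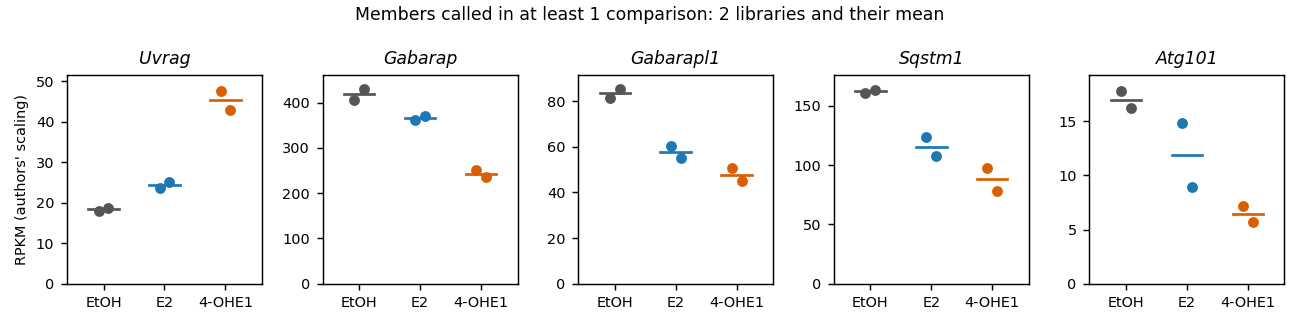
RPKM in the authors' scaling for the 5 members called in at least 1 comparison; points are the 2 libraries of each group and the bar is their mean. Uvrag climbs from 18.0 and 18.8 in EtOH to 47.8 and 43.0 in 4-OHE1, whereas the other 4 are lowest in 4-OHE1.

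Sqstm1, which encodes the ubiquitin-binding receptor p62, was the highest and the only one of the 5 soluble cargo receptors called by limma. Its levels were 160 and 164 RPKM in EtOH, 123 and 108 with E2, and 97.9 and 78.1 with 4-OHE1. In the authors' scaling the 3 groups did not overlap, and the log2 change for 4-OHE1 against E2 was -0.40 there. Sqstm1 fell with 4-OHE1 against EtOH by 0.43 (SE 0.107, 95% interval -0.68 to -0.17, adjusted p = 0.0305), a ratio of 0.744 relative to exon reads. For E2 against EtOH the log2 change was -0.29 (-0.55 to -0.04, adjusted p = 0.213), and for 4-OHE1 against E2 it was -0.13 (-0.39 to 0.12, adjusted p = 0.445), neither of which passed. The authors' deposited table gives -0.32 for E2 against EtOH with an adjusted p of 0.0153. Leaving out EtOH replicate 1 or 2 moved the adjusted p of the fall to 0.164 and 0.184, and leaving out either E2 library moved it to 0.0627, in a range of 0.000683 to 0.184. E2 against EtOH passed without 4-OHE1 replicate 1 (0.046) or 2 (0.0455). Sqstm1 lies on chromosome 11 at 50013654 to 50024322 on the minus strand. The ubiquitin receptors Optn, Nbr1 and Tax1bp1 and the receptor-related Calcoco1 had log2 changes of -0.29 to 0.23 with 4-OHE1 against EtOH and were not called by limma.

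None of the 5 genes of mitophagy was called by limma. Pink1, the kinase that marks damaged mitochondria, was the highest, with 53.1 and 52.1 RPKM in EtOH, 39.8 and 38.5 with E2, and 42.7 and 60.0 with 4-OHE1. The E2 libraries were lowest, and in the authors' scaling the 4-OHE1 libraries lay on either side of the EtOH pair. For 4-OHE1 against EtOH the log2 change of Pink1 was -0.05 in that scaling and 0.40 relative to exon reads (95% interval -0.003 to 0.80). Its log2 change for 4-OHE1 against E2 was 0.62 (0.22 to 1.03) with an adjusted p of 0.147; edgeR on the recovered reads called it higher, by 0.63 with 0.0248. Tbk1, the kinase that phosphorylates cargo receptors, read 20.3 in both 4-OHE1 libraries, 17.8 and 18.7 in EtOH, and 15.7 and 17.0 in E2. With limma its adjusted p was 0.312 against EtOH and 0.104 against E2, while edgeR gave log2 changes of 0.59 with 0.00583 and 0.55 with 0.0199. The mitochondrial surface receptors Bnip3, Bnip3l and Fundc1 had log2 changes of -0.16 to 0.29 with 4-OHE1 against EtOH.

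Vesicle fusion was represented by Vps11 and Vps18, subunits of the HOPS tether, and the SNARE protein Stx17, with no call by limma or edgeR in any comparison. Vps11 read 23.4 in both EtOH libraries, 23.7 and 21.6 with E2, and 16.7 and 18.1 with 4-OHE1. Relative to exon reads that was a log2 change of 0.03 with 4-OHE1 against EtOH (-0.23 to 0.30), and -0.40 in the authors' scaling. As for Atg3, the lower RPKM of the 4-OHE1 libraries was not seen relative to exon reads.

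**Figure D3:**
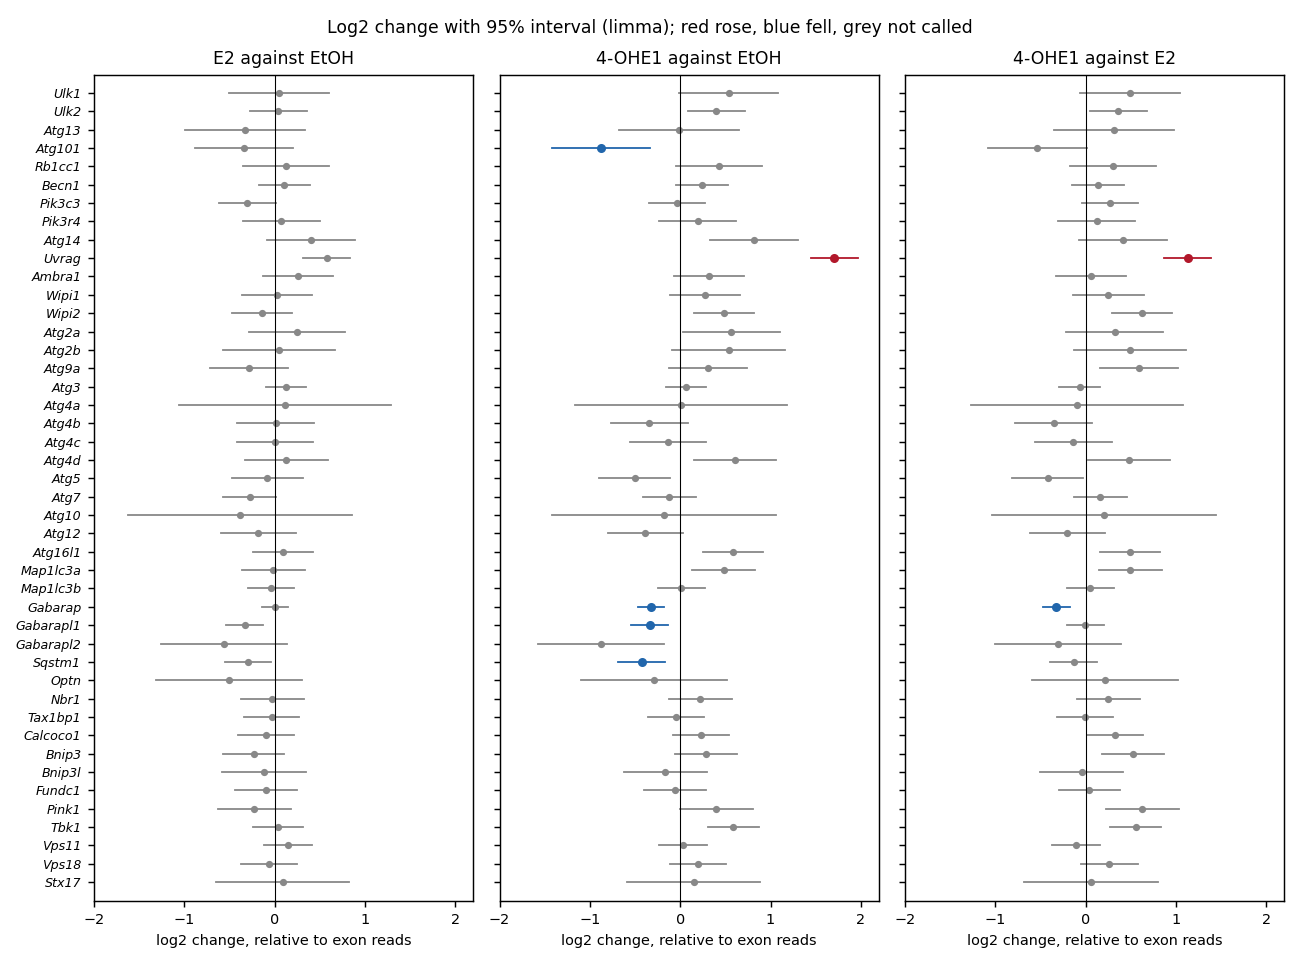
Log2 change relative to exon reads with its 95% interval from limma for the 44 members in the 3 comparisons, red for genes that rose, blue for genes that fell and grey for genes not called. Most intervals cross 0, and Uvrag is the red point at 1.70 in the middle panel and 1.13 in the right one.

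Calls depended on the test for members that leaned upward. EdgeR on the recovered reads called 13 members for 4-OHE1 against EtOH, 9 higher and 4 lower, beside 28.9% of all genes, 14.0% higher and 14.9% lower. The 4 lower were the same genes as with limma. The 9 higher were Uvrag at 1.74, Atg14 at 0.95, Atg2b at 0.84, Atg4d at 0.67, Atg2a at 0.66, Atg16l1 at 0.61, Tbk1 at 0.59, Wipi2 at 0.51 and Ulk2 at 0.42 on the log2 scale. With limma, Atg14, Atg16l1, Tbk1 and Wipi2 passed relative to exon reads but not in the authors' scaling, and Atg2a, Atg2b, Atg4d and Ulk2 passed in neither. Between the hormones edgeR called Uvrag, Wipi2, Pink1 and Tbk1 higher with 4-OHE1 and Gabarap lower, beside 14.4% of all genes, 6.54% higher and 7.82% lower. With limma for 4-OHE1 against EtOH, Uvrag alone stayed called when either EtOH library was left out, and the falls of Gabarap, Gabarapl1, Sqstm1 and Atg101 were lost.

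Relative to exon reads, the change with 4-OHE1 against EtOH ran with exon length. The Spearman correlation between exon length and log2 change with 4-OHE1 against EtOH was 0.50 over the 44 members and 0.26 over the 10950 genes, given as descriptions since all points share the same libraries. Over all genes, cut at 1897 and 3428 bases into 3 classes of like size, the median log2 change was -0.18 for the shortest class, -0.08 for the middle and 0.16 for the longest. The members' medians were -0.18 over 9 genes, -0.01 over 20 and 0.31 over 15, and in the authors' scaling -0.54, -0.43 and -0.10. For 4-OHE1 against E2 they were 0.05, 0.01 and 0.32 relative to exon reads. The 4 genes that fell had exons of 1116 to 2020 bases, and the 9 that edgeR called higher had 3006 to 10129. In the shortest class 19.4% of all genes fell and 3.95% rose, and in the longest 8.44% fell and 8.74% rose. Against E2 the correlation for 4-OHE1 was 0.39 over members and 0.29 over all genes, and for E2 against EtOH it was 0.42 and 0.05. Uvrag, with 3421 bases, lay 1.70 above 0 where the middle class of genes had a median of -0.08. The part of exon length in the members' changes was not tested.

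**Figure D4:**
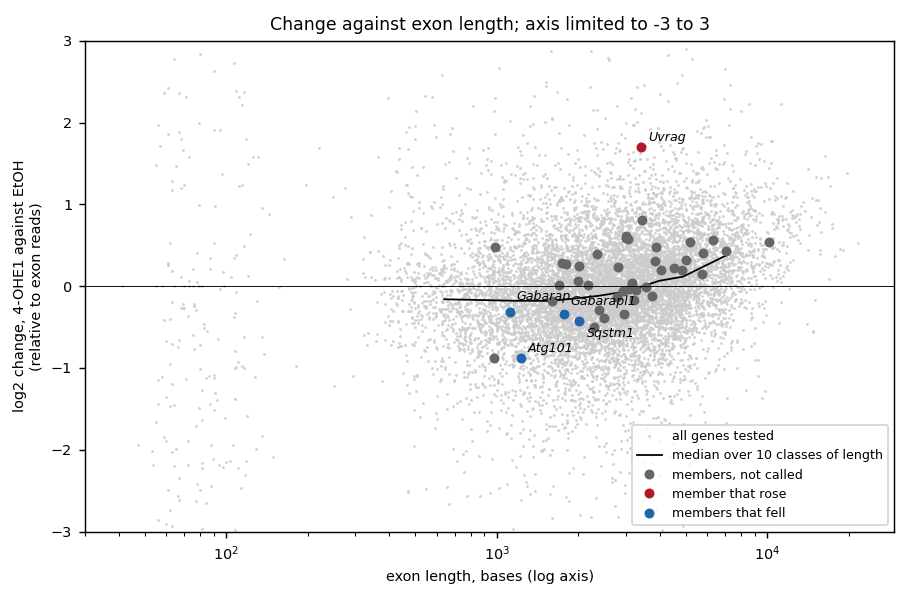
Log2 change with 4-OHE1 against EtOH relative to exon reads plotted on exon length (log axis); light grey points are all genes tested, the black line joins medians over 10 classes of length, and larger points are the 44 members. The line climbs to the right, the 4 members that fell (blue) lie to the left, and Uvrag (red) lies far above it; 44 genes outside -3 to 3 are not drawn.

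The promoters of the 5 called genes are shown because these genes moved and their start regions can be compared. Each line is 250 bases upstream of the start given by RefSeq on GRCm38.p6, read 5′ to 3′ on the gene's strand, with the GC box GGGCGG on either strand in capitals. They are chr7:99141145-99141394 (minus strand) for Uvrag, chr11:69991120-69991369 (plus) for Gabarap, chr6:129532942-129533191 (plus) for Gabarapl1, chr11:50210821-50211070 (minus) for Sqstm1 and chr15:101284051-101284300 (plus) for Atg101.
Uvrag: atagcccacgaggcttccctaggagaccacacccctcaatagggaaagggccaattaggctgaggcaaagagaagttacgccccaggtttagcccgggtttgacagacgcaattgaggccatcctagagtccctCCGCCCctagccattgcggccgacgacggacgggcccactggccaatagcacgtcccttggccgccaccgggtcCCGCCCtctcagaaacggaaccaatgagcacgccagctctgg
Gabarap: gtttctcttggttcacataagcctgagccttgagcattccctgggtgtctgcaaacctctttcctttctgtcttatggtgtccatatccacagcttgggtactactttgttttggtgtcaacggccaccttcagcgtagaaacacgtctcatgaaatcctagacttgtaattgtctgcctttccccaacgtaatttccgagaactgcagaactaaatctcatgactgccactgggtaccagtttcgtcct
Gabarapl1: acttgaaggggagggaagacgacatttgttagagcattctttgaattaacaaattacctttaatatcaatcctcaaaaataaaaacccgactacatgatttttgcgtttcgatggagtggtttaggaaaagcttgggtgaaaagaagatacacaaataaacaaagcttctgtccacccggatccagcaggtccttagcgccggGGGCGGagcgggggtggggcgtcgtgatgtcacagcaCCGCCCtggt
Sqstm1: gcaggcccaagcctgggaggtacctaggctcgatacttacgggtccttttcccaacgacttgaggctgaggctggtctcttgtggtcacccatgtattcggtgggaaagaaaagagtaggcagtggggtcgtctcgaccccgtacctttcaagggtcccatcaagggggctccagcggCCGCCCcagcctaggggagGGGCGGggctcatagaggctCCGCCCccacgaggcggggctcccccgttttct
Atg101: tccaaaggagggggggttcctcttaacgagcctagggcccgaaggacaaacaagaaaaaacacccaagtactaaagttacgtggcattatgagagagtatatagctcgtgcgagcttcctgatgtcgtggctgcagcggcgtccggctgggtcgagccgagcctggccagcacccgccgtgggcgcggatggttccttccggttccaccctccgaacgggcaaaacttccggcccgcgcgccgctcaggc
Uvrag and Gabarapl1 have 2 GC boxes each, Sqstm1 has 3, and Gabarap and Atg101 have 0.

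By symbol, 40 promoters were found for 36 of the 44 members. The GC box lay in 23 of these 40, and in 32.7% of 32851 mouse promoters of the same length. G and C made up 61.6% of the promoter of Uvrag, 63.2% of Sqstm1, 61.2% of Atg101, 46.4% of Gabarap and 46.8% of Gabarapl1. The median over all promoters was 52.4%, and the part of base content in the share with a GC box was not tested. The E-box CACGTG, the core of sites bound by MITF and TFEB, lay in 4 of the 40, those of Atg3, Atg5, Atg7 and Bnip3, and in 6.02% of all promoters. Both motifs were searched on both strands; a match is a string of letters and not a site shown to be bound, and no match says only that these letters are absent from this window.

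Beyond the 44, some controllers of autophagy were also called. Of 114 other genes of the pathway in 6 lists, 106 were tested. With 4-OHE1 against EtOH 7 rose and 10 fell, 16.0% in all beside 19.6% of all genes, and against E2 3 rose and 7 fell, 9.43% beside 9.64%. E2 against EtOH raised 2, Ddit4 and Trp53inp1, and lowered 0, 1.89% beside 3.93%.

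Upstream of the kinase complex, where mTORC1 holds autophagy in check and AMPK promotes it, 3 of 32 genes rose and 3 fell with 4-OHE1 against EtOH. That is 18.75%, near the 19.6% of all genes tested. Ddit4, an inhibitor of mTORC1, read 33.0 and 30.0 RPKM in EtOH, 183 and 165 in E2, and 246 in both 4-OHE1 libraries. That is a log2 change of 3.38 for 4-OHE1 against EtOH (adjusted p = 2.04e-05) and 0.77 against E2 (adjusted p = 0.0111). Tsc1, another mTORC1 inhibitor, rose by 1.14 and Sesn2, a sensor of amino acids that restrains mTORC1, by 1.10. Lamtor1, Lamtor3 and Lamtor5, subunits of the Ragulator that anchors mTORC1 to the lysosome, fell by 0.38, 1.01 and 0.67. Lamtor3 read 32.1 and 36.2 RPKM in EtOH, 28.8 and 25.5 with E2, and 11.8 and 12.1 with 4-OHE1. Against E2, Sesn1 rose by 1.08 and Lamtor3 fell by 0.88, Lamtor5 by 0.61 and the GTPase Rraga by 0.50. The rise of Ddit4 against E2 was lost without E2 replicate 2 (adjusted p = 0.0557) and that of Sesn1 without E2 replicate 1 (0.0516), and the falls against E2 without either E2 library, Lamtor5 and Rraga also without either EtOH library. Those against EtOH of Lamtor1 and Lamtor5, and the rises of Tsc1 and Sesn2, were lost without either EtOH library, with adjusted p-values from 0.0761 for Lamtor5 to 0.264 for Sesn2; Tsc1 was lost without 4-OHE1 replicate 1 (0.0564) and Sesn2 without 4-OHE1 replicate 2 (0.0934) as well.

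Of 9 transcriptional regulators, 1 rose and 2, Tfeb and Mitf, fell with 4-OHE1 against EtOH, 33.3% in all beside 19.6% of all genes. Tfeb and Mitf encode related factors that activate lysosomal and autophagy genes. Tfeb stood at 26.1 and 24.6 RPKM in EtOH, 13.5 in both E2 libraries, and 6.37 and 7.80 in 4-OHE1. The groups did not overlap. Tfeb fell by 1.30 against EtOH (95% interval -1.65 to -0.95, adjusted p = 0.00188) and by 0.62 against E2 (adjusted p = 0.0421), a call lost under 8 of the 18 alternatives; E2 against EtOH gave -0.68 with an adjusted p of 0.0514, not called. Mitf read 13.2 in both EtOH libraries, 9.85 and 10.7 with E2, and 4.42 and 4.75 with 4-OHE1. It fell by 0.96 against EtOH (adjusted p = 0.00525) and by 0.80 against E2 (adjusted p = 0.0195). The fall of Mitf against EtOH was lost without EtOH replicate 1 (0.0885) or 2 (0.0854), and both falls against E2 were lost without any of the EtOH or E2 libraries, with adjusted p-values of 0.0709 to 0.158.

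Trp53inp1, a p53 target whose product binds ATG8 proteins, was the gene that rose most among 19 others of initiation, nucleation and membrane supply. It read 2.37 and 2.80 RPKM in EtOH, 7.87 and 9.95 with E2, and 19.3 and 23.8 with 4-OHE1. The log2 change was 3.09 for 4-OHE1 against EtOH (adjusted p = 0.000268), 1.45 against E2 (adjusted p = 0.00876) and 1.64 for E2 against EtOH (adjusted p = 0.00909). The last call was lost when any EtOH or E2 library was left out (adjusted p = 0.0604 to 0.125), and that against E2 without E2 replicate 1 (0.0675). Bcl2l1, whose product binds beclin 1, rose by 1.41 with 4-OHE1 against EtOH, and Wdfy3, a scaffold for aggregate removal, by 1.43, and none of the 19 fell. The share called was 15.8%, beside 19.6% of all genes. The call of Wdfy3 was lost without EtOH replicate 1 (adjusted p = 0.0502) or 2 (0.0575).

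In the fusion list of 14 genes, 3 fell and 0 rose with 4-OHE1 against EtOH, 21.4% beside 19.6% of all genes, of which 13.9% fell. Plekhm1, an adaptor of RAB7 and the HOPS tether, read 12.7 and 13.8 RPKM in EtOH, 10.8 and 7.68 with E2, and 3.75 and 3.32 with 4-OHE1, and fell by 1.28 (adjusted p = 0.00416). Rab7, the GTPase of late endosomes, read 173 and 175 in EtOH, 146 and 151 with E2, and 99.0 and 99.4 with 4-OHE1, and fell by 0.35 (adjusted p = 0.0137). Lamp1, a lysosomal membrane protein, fell by 0.29. Against E2, Plekhm1 fell by 0.96 and Rab7 by 0.32. All 3 falls against EtOH were lost without either EtOH library, with adjusted p-values of 0.0543 to 0.139, and both falls against E2 without any of the EtOH or E2 libraries, with 0.0546 to 0.131.

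Receptors for other cargo gave 1 call among 9 genes, Ncoa4, the ferritin receptor, which fell by 0.58 with 4-OHE1 against EtOH. Of 23 further genes of mitophagy and mitochondrial dynamics, Vdac1, the outer membrane channel, fell by 0.50 in that comparison and 22 were not called. The shares called were 11.1% for receptors and 4.35% for mitophagy and dynamics, beside 19.6% of all genes. Without EtOH replicates 1 and 2 in turn the adjusted p of Ncoa4 was 0.187 and 0.22, and that of Vdac1 0.105 and 0.157, so neither passed. Neither list had a call for E2 against EtOH or for 4-OHE1 against E2. Of the 17 genes called over the 6 lists for 4-OHE1 against EtOH, Ddit4, Trp53inp1, Bcl2l1, Tfeb and Lamtor3 kept their call under all 18 alternatives, and each of the others lost it under at least 1.

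**Figure D5:**
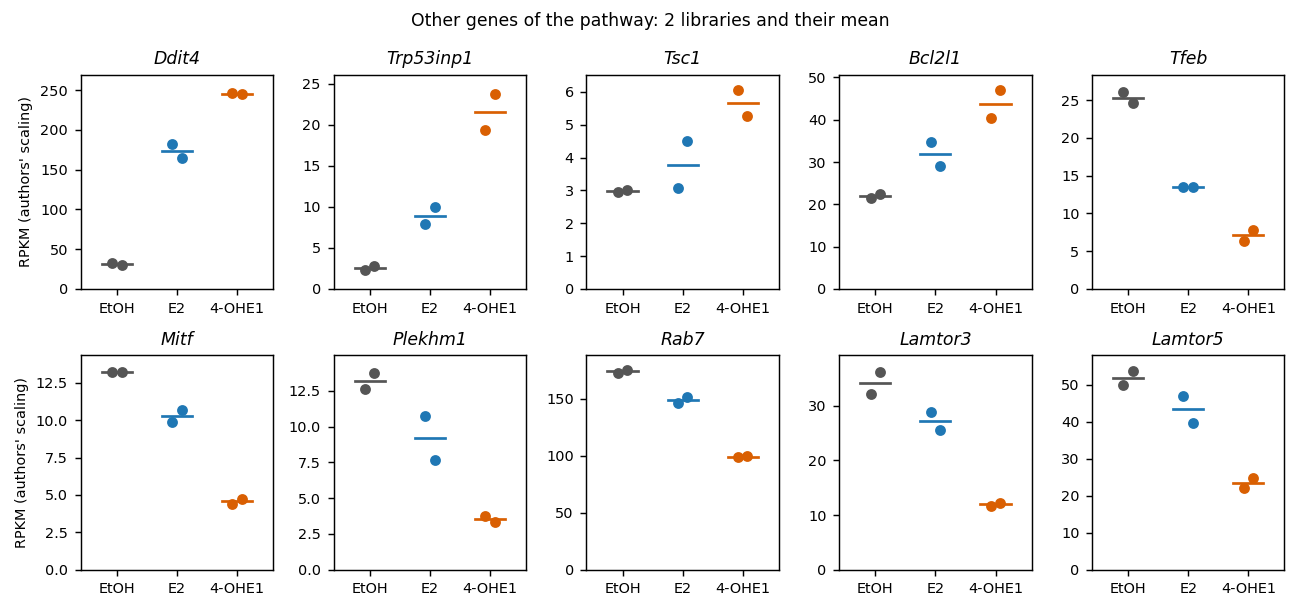
RPKM in the authors' scaling for 10 other genes of the pathway; points are the 2 libraries of each group and the bar is their mean. Ddit4 and Trp53inp1 climb from EtOH through E2 to 4-OHE1, and Tfeb, Mitf, Plekhm1, Rab7, Lamtor3 and Lamtor5 have both 4-OHE1 points below all others.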

How the data were processed

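Per the labels, the KAPA mRNA HyperPrep kit was used for library preparation and a HiSeq2500 for sequencing. The submitters' processing notes list mm9, STAR, HOMER, DESeq2 and edgeR, with no versions. The deposited table holds RPKM per gene for 1 RefSeq transcript, per the file headers. The authors' edgeR tables hold signal columns, exon counts scaled to a common total, and log2 fold changes with p-values and adjusted p-values, as deposited. Dividing the deposited signal by 1 factor for each library gave whole read counts, to within 0.05 of a read, for 99.9816% of 119614 nonzero values.

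Limma-trend (limma 3.58.1, R 4.3.3) was fitted to log2(RPKM + 1) of the 10950 genes whose RPKM averaged at least 1, all 6 libraries in 1 fit of group means, with Benjamini-Hochberg adjustment and two-sided tests. Calls needed both the authors' scaling and a scaling to exon reads. EdgeR 4.0.16 (quasi-likelihood) and DESeq2 1.42.0 on recovered reads were alternatives, with 266 genes left out whose transcript differed between the edgeR tables; 7 members (Ambra1, Atg4c, Atg5, Atg7, Atg16l1, Map1lc3a and Nbr1) had another transcript there than in the RPKM table. Exon reads numbered 4515276 to 35293924 a library, and low genes rest on few reads in the shallow libraries. Limma gave each gene 1 spread over all 6 libraries, so its intervals do not follow the depth of the groups compared. The SE of Atg4a, for example, was 0.487 in every comparison.

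Members called, and the highest member of each role, are given in full; of each further list, at most the 3 genes called with the largest change in each direction are named. A gene of these lists is counted but not reported here. Members and lists were chosen with earlier results of these data known. Near copies are matches of at least 95% identity over at least 200 bases between transcripts.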

Additional observations from a re-analysis of the deposited data

How the results depend on the processing

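Uvrag kept its calls under all 18 alternatives. The count of members called moved by more than 1.5 times under these settings, each given with the share of all genes called in brackets. For E2 against EtOH, where the count was 0 (3.93%), it became 1 with the authors' scaling alone (7.21%), 1 with exon scaling alone (5.35%), 1 with TMM (5.29%), 1 with edgeR (7.55%), 1 with DESeq2 (9.59%) and 3 with only the 4 libraries compared (9.4%); leaving out 1 library gave 0 to 3 (0.42% to 9.47%). For 4-OHE1 against EtOH, where it was 5 (19.6%), it became 3 with no filter on low values (11.1%), 1 without the limma trend (17.5%), 18 with the authors' scaling alone (45.3%), 9 with exon scaling alone (26.7%), 9 with TMM (27.8%), 13 with edgeR (28.9%) and 13 with DESeq2 (24.1%); leaving out 1 library gave 1 to 9 (5.14% to 29.1%), with 1 where either EtOH library was missing. For 4-OHE1 against E2, where it was 2 (9.64%), it became 1 with no filter (4.63%), 1 with only the 4 libraries compared (3.09%), 1 without the trend (6.69%), 4 with exon scaling alone (12.7%), 4 with TMM (13.0%), 5 with edgeR (14.4%) and 5 with DESeq2 (13.1%); leaving out 1 library gave 1 to 5 (1.57% to 20.5%). The fall of Gabarap against E2 was lost under 7 of 18 alternatives. Against EtOH, the falls of Sqstm1, Atg101, Gabarap and Gabarapl1 were lost under 7, 5, 3 and 3.

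The log2 change with 4-OHE1 against EtOH turned negative and passed for Atg3 (-0.39), Map1lc3b (-0.44) and Vps11 (-0.40) with the authors' scaling alone, and for Atg4a (-0.79) without 4-OHE1 replicate 1, against 0.81 without 4-OHE1 replicate 2; the cause was not tested. A fit with the replicate number as a block gave 0, 5 and 2 members, the same counts as without it. Over all genes tested, same-numbered libraries did not deviate together (correlations -0.00885, -0.0200 and 0.0105), and the libraries were treated as unpaired. Such correlations cannot exclude a pairing that moved only some genes. Where a left-out library leaves a lone one in its group, that one is assumed to vary like the others. The 4 shallow libraries hold 21 to 112 reads for Atg4a and Atg10, fewest in 4-OHE1 replicate 2, which limits such genes.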
